A study of Mus musculus with 4 samples.

Results

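Histones are the proteins that package DNA, and most of them are made in bulk during DNA replication. Variant histones are encoded by separate genes that are transcribed outside replication as well, and they replace the canonical protein at chosen places. The 9 genes described here encode variants of H2A, H3 and the linker histone H1 other than macroH2A. They are H2afx, H2afz, H2afv, H2afj, H3f3a, H3f3b, H1f0, H1fx and Cenpa. They were chosen by gene name, and each of the 9 was found once in both deposited tables, among 19150 genes that the tables share. All 9 held enough reads to be tested, as did 15708 genes in all.

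RNA came from brains of C57BL/6 mouse embryos at E13.5. The KO group holds libraries KO2 and KO4, and the WT group holds WT6 and WT8. The series concerns deletion of macroH2A, a variant of H2A with a large additional domain, and the labels do not say which macroH2A gene was targeted or how. One deposited table sets KO2 beside WT6, the other KO4 beside WT8. Where the libraries of a genotype get a value each, they stand in the order KO2, KO4 and WT6, WT8. The comparison asks whether transcripts of the other histone variants differ between KO and WT brains.

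H2afy, which encodes macroH2A1, had 1368 and 1267 reads in the KO libraries, against 5538 and 5593 in the WT libraries, and it fell in KO (log2 fold change -2.22, edgeR quasi-likelihood adjusted p = 0.00167), a call that ended when WT6 was left out. H2afy2, which encodes macroH2A2, had 3487 and 3781 reads in KO, against 3303 and 2910 in WT. Counts of the shared genes summed to 18133486 and 18076131 in KO, against 17148578 and 16467425 in WT. Markers of neural progenitors (Sox2, Pax6, Nes, Vim, Hes5) and of neurons (Tubb3, Dcx, Neurod1, Stmn2, Map2) were all detected and summed to 1499.55 and 1414 CPM (progenitors) and 5167 and 4923 CPM (neurons) in KO, against 1494 and 1585 CPM and 4885 and 5404 CPM in WT. CPM is the read count scaled to library size with TMM factors. Xist, the transcript of the inactive X chromosome, had 6 and 8105 reads in KO, against 19 and 6094 in WT, and the Y-linked Kdm5d had 729 and 1 in KO, against 624 and 1 in WT. The libraries of a genotype therefore came from embryos of different sex, and sex cannot be told apart from the deposited pair. The labels name no litters, so a p-value here covers the spread among these 4 samples only, part of which may be technical.

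H2AX, H2A.Z, H3.3 and CENP-A have well known roles. H2AX becomes phosphorylated around DNA breaks. H2A.Z sits at promoters and is placed there by dedicated remodelling complexes. H3.3 marks transcribed genes, enhancers and telomeres. CENP-A replaces H3 at centromeres, and H1.0 is a linker histone that accumulates as cells leave the cell cycle.

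H3.3 and H2A.Z are each made from a pair of genes whose coding sequences differ at many synonymous bases. The sequences are shown because they decide whether reads of the paralogues can be told apart. The lines give the first 150 coding bases of each gene's principal GENCODE M21 transcript (GRCm38), 5′ to 3′, with bases that differ from the paralogue in capitals.
H3f3a: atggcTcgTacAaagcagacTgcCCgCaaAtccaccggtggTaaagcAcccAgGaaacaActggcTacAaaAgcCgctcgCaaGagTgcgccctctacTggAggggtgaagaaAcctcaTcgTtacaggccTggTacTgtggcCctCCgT
H3f3b: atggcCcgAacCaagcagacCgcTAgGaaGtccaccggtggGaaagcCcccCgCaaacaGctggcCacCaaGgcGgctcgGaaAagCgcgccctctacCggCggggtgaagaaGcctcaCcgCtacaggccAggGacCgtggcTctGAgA
H2afz: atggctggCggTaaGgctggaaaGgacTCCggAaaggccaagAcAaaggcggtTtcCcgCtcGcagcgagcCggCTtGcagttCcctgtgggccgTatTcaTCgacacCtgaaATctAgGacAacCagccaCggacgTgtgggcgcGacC
H2afv: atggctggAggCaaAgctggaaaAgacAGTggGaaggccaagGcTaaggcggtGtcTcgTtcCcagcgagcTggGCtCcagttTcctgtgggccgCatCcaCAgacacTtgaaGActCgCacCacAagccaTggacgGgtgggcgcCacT

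Over the full coding sequence without its stop codon, H3f3a and H3f3b were identical at 313 of 408 bases (76.7%), and 81 of the 95 differing bases lay at the last base of a codon. H2afz and H2afv were identical at 304 of 384 bases (79.2%), with 69 of 80 differences at the last base of a codon. The longest run shared by the principal transcripts was 23 bases for the H3.3 pair and 14 bases for the H2A.Z pair. A read longer than such a run therefore belongs to one gene of the pair in these sequences. No label gives the read length. Gm6108, a processed pseudogene whose deposited annotation names H2A.Z, had 6 and 8 reads in KO, against 3 and 11 in WT.

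Copies of H3f3a elsewhere in the genome are closer than its paralogue is. Of 13 pseudogenes in both tables that the deposited annotation describes as H3.3, 11 were closest to H3f3a by alignment and 2 to H3f3b. H3f3c, annotated as a processed pseudogene, shared a run of 267 bases with H3f3a, and AC153153.2 shared 185 bases. The copies with the most reads were AC123935.1, with 366 and 292 in KO, against 285 and 317 in WT, and H3f3a-ps1, with 347 and 316 in KO, against 285 and 302 in WT. Reads on the 11 copies summed to 1057 and 856 in KO, against 815 and 964 in WT. That is 14.0% and 11.8% of the H3f3a count in KO, and 12.4% and 17.0% in WT. Counts of H3f3a are uncertain for this reason, and by how much was not measured, since how reads that match several places were counted is not stated. The 2 copies closest to H3f3b held between 0.237% and 0.330% of its count.

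Replication-dependent histone mRNAs end in a conserved stem-loop in place of a poly(A) tail, and H2AX transcripts are known to be able to use either end. The histone mRNA stem-loop, searched on the transcript strand by its conserved bases, was found in 56 of 13571 tested protein-coding genes (0.413%), of which 28 carry a histone name. Among the 9 variant genes it was found in H2afx and in none of the others. The line gives it within 30 bases of the H2afx transcript, with the match in capitals, and it lies 822 bases before the annotated end.
H2afx: ccacaaaGGCCCTTTTAAGGGCCaccacct

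Levels of the genes are compared as CPM per kilobase of summed exon. H3f3b was the most abundant, at 483 ± 6.09 in KO and 484 ± 31.1 in WT (mean ± SD, n = 2 libraries each). H2afz followed at 415 ± 1.60 in KO and 437 ± 45.6 in WT, and H1f0 at 343 ± 7.29 in KO and 380 ± 35.9 in WT. H2afv lay at 213 ± 2.88 in KO and 241 ± 47.4 in WT, H2afx at 132 ± 1.45 in KO and 155 ± 33.3 in WT, and H3f3a at 115 ± 3.55 in KO and 105 ± 5.58 in WT. These 6 genes stood at or above percentile 97.2 of the tested genes by the same measure.

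The remaining 3 genes formed a lower group. H1fx had 19.1 ± 0.535 CPM per kilobase in KO and 23.04 ± 3.66 in WT. Cenpa had 20.05 ± 0.288 in KO and 20.4 ± 3.68 in WT, and H2afj had 14.5 ± 0.229 in KO and 18.9 ± 1.36 in WT. The 4-library ranges of H3f3b and H2afz overlapped, as did those of H2afz and H1f0, and those of H1fx, Cenpa and H2afj. Neighbours elsewhere in the order did not overlap. The order rests on the length used. With the length of the principal transcript, H2afz (708 CPM per kilobase over all libraries) stood above H3f3b (573), and Cenpa (80.9) stood above H1fx (21.1), since the annotated exons of Cenpa sum to 5860 bases and its principal transcript to 1466.

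**Figure D1:**
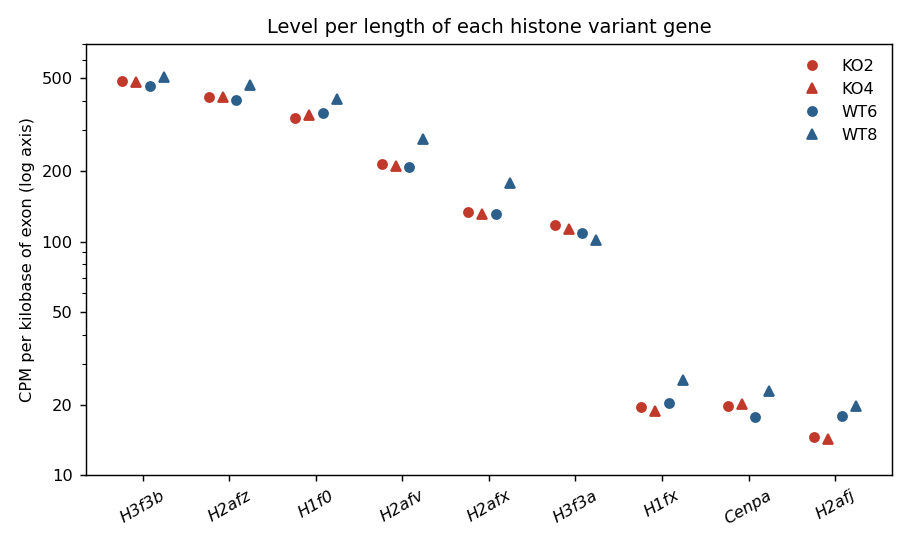
Level of each gene in CPM per kilobase of summed exon (log axis), 1 point per library, KO in red and WT in blue. H3f3b, H2afz and H1f0 lie above 300 in every library, and H1fx, Cenpa and H2afj lie below 30.

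Across all genes, the edgeR quasi-likelihood test called none of the 15708 genes higher in KO (0% of those tested) and 1 lower (0.00637%), H2afy, at an adjusted p under 0.05. None of the 9 histone variants passed in either direction, and 1 of them (H2afj) had an unadjusted p under 0.05, against 4.7% of all genes. DESeq2 and limma-voom called 0 of the 9 as well, with 1 at an unadjusted p under 0.05 in each. No alternative brought any of the 9 under an adjusted p of 0.314. The log2 fold change was below 0 for 8 of the 9, with a median of -0.15 beside -0.01 over all genes tested. Of those 15708 genes 7674 lay above 0.

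H2afj encodes H2A.J, a variant close to canonical H2A, and of the 4 H2A genes among the 9 it had the largest difference. H2afj (ENSMUSG00000060032, chromosome 6, 136808244 to 136810074 on GRCm38, the build of all positions here) had 491 and 480 reads in KO, against 564 and 580 in WT. In CPM this was 26.8 and 26.2 in KO, against 32.8 and 36.3 in WT. Both KO libraries thus lay below both WT libraries. It had a log2 fold change of -0.38 (95% interval -0.64 to -0.12) and did not pass (edgeR adjusted p = 0.743). Leaving out single libraries gave values between -0.46 and -0.30.

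H2afx, the gene of H2AX (ENSMUSG00000049932, chromosome 9, 44334694 to 44336077), had 184 and 182 CPM in KO, against 182 and 247 CPM in WT. WT8 stood above the other 3 libraries, which lay close together. The log2 fold change was -0.23 (95% interval -0.57 to 0.12, edgeR adjusted p = 0.743), and without WT8 it was 0.02.

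H2afz encodes H2A.Z.1, the main form of H2A.Z, and H2afv encodes H2A.Z.2. H2afz (ENSMUSG00000037894, chromosome 3, 137864487 to 137866922) had 739 and 735 CPM in KO, against 719 and 834 CPM in WT. H2afv (ENSMUSG00000041126, chromosome 11, 6427229 to 6444443) had 351 and 344 CPM in KO, against 339 and 449 CPM in WT. In both genes WT6 was the lowest library and WT8 the highest, with the KO libraries between them. The log2 fold change was -0.07 for H2afz (95% interval -0.32 to 0.17, edgeR adjusted p = 0.847). For H2afv it was -0.18 (95% interval -0.51 to 0.15, edgeR adjusted p = 0.752). Without WT8 both turned to 0.04.

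The balance of the H2A.Z genes was nearly constant in 3 libraries. Reads of H2afz per read of H2afv numbered 2.11 and 2.14 in KO, against 2.12 and 1.86 in WT. The log2 ratio differed by 0.10 between KO and WT (exact permutation test, two-sided, p = 0.667, where 0.33 is the smallest value that 2 against 2 libraries allow), and by 0.0006 without WT8.

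Summed per kilobase of exon, the H2A variants H2afx, H2afz, H2afv and H2afj reached 779 and 770 CPM in KO, against 762 and 942 CPM in WT. H2afy on the same scale had 11.0 and 10.2 in KO, against 47.3 and 51.4 in WT. H2afy2 had 87.5 and 94.9 in KO, against 88.3 and 83.8 in WT, with the same values by either length. With principal transcript lengths the sums of the 4 genes were 1054 and 1044 in KO, against 1029 and 1253 in WT, and H2afy had 36.5 and 33.8 in KO, against 157 and 171 in WT. The KO sums lay between those of the WT libraries by either length.

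**Figure D2:**
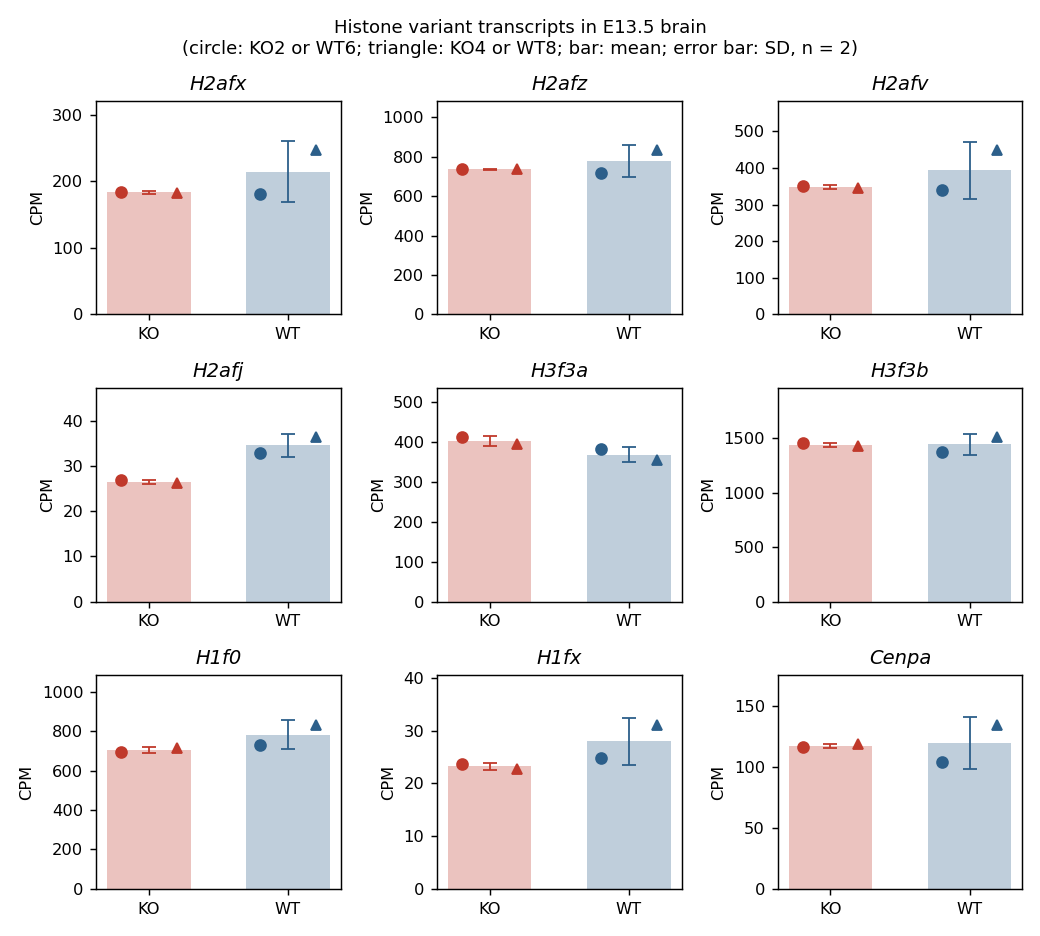
CPM of each histone variant gene by genotype, KO left of WT. Circles are KO2 and WT6, triangles KO4 and WT8, bars the mean and error bars the SD over 2 libraries. KO points lie close together, and the WT8 triangle is the highest point for every gene but H3f3a.

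H3f3a and H3f3b encode the same H3.3 protein. H3f3b (ENSMUSG00000016559, chromosome 11, 116021912 to 116027962) had 1451 and 1426 CPM in KO, against 1375 and 1506 CPM in WT. The KO libraries lay between the WT libraries, and the log2 fold change was -0.0019 (95% interval -0.22 to 0.22, edgeR adjusted p = 0.995). H3f3a (ENSMUSG00000060743, chromosome 1, 180800832 to 180813943) had 412 and 394 CPM in KO, against 383 and 355 CPM in WT. It was the one gene of the 9 with both KO libraries above both WT libraries, an order that 20.1% of all tested genes showed. Its log2 fold change was 0.13 (95% interval -0.08 to 0.34, edgeR adjusted p = 0.743), and 0.11 with the reads of its 11 pseudogenes added.

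H3f3a overlaps genes on the opposite strand, and strand use in counting is not stated. Gm17275 had 140 and 144 reads in KO, against 128 and 96 in WT, and H3f3aos had 63 and 60 in KO, against 47 and 44 in WT. Reads of these genes and of H3f3a cannot be told apart where their exons overlap. Their counts are small beside the 5669 or more of H3f3a, but do not show how many reads fell in the overlap. Per read of H3f3b, H3f3a had 0.284 and 0.277 reads in KO, against 0.278 and 0.236 in WT. The log2 ratio differed by 0.13 between KO and WT (exact permutation test, two-sided, p = 0.667) and by 0.01 without WT8.

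H1f0 and H1fx encode linker histones that are made outside replication. H1f0 (ENSMUSG00000096210, chromosome 15, 79028212 to 79030498 in the deposited tables) had 693 and 715 CPM in KO, against 730 and 834 CPM in WT. H1fx (ENSMUSG00000044927, chromosome 6, 87980421 to 87981637) had 23.7 and 22.8 CPM in KO, against 24.9 and 31.2 CPM in WT. For both genes the KO libraries lay below both WT libraries, as for H2afj, and 19.4% of all tested genes showed that order. The log2 fold changes were -0.15 for H1f0 (95% interval -0.39 to 0.09) and -0.27 for H1fx (95% interval -0.61 to 0.07), both at an edgeR adjusted p of 0.743. Without WT8 they were -0.05 and -0.09. H1fx lies opposite the antisense gene Gm5577, which had 209 and 185 reads in KO, against 185 and 214 in WT, beside 418 to 498 for H1fx, so its count is uncertain without strand.

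The H1 genes of the replication-dependent class had fewer reads than either. Reads are compared here without regard to length, and how RNA was selected for sequencing is not among the labels used. Few reads of mRNAs without a poly(A) tail therefore need not mean a low level. Hist1h1c, the most abundant, had 237 and 236 reads in KO, against 246 and 212 in WT. Hist1h1b had 0 and 13 reads in KO, against 9 and 16 in WT. Hist1h1e had 6 and 35 reads in KO, against 13 and 31 in WT, and Hist1h1d had 7 and 25 in KO, against 6 and 22 in WT. These last 3 genes were higher in KO4 and WT8 than in KO2 and WT6. Scaled to depth, Cenpa was the one variant gene of the 9 with that order. H2afx, whose transcript holds the stem-loop shown above, had 3381 and 3328 reads in KO, against 3123 and 3939 in WT. Of 5 replication-dependent H1 genes 4 were tested, none passed, and 0 had an unadjusted p under 0.05 in edgeR.

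Cenpa, the gene of the centromeric H3 variant CENP-A (ENSMUSG00000029177, chromosome 5, 30666777 to 30674830), had 116 and 119 CPM in KO, against 104 and 135 CPM in WT. The KO libraries lay between the WT libraries. The log2 fold change was -0.03 (95% interval -0.33 to 0.28, edgeR adjusted p = 0.960), and without WT8 it was 0.17. Dividing cells make CENP-A mRNA late in the cell cycle. Their markers lay above 0 for 6 of 8 genes, beside 7674 of 15708 over all tested genes. The median log2 fold change of the markers was 0.18. In edgeR 0 of the markers passed and 1 had an unadjusted p under 0.05, beside 4.7% of all tested genes. The summed level of the markers was 932 and 1006 CPM in KO, against 874 and 925 CPM in WT. In whole brain, fewer cells of a type and less RNA per cell cannot be told apart.

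**Figure D3:**
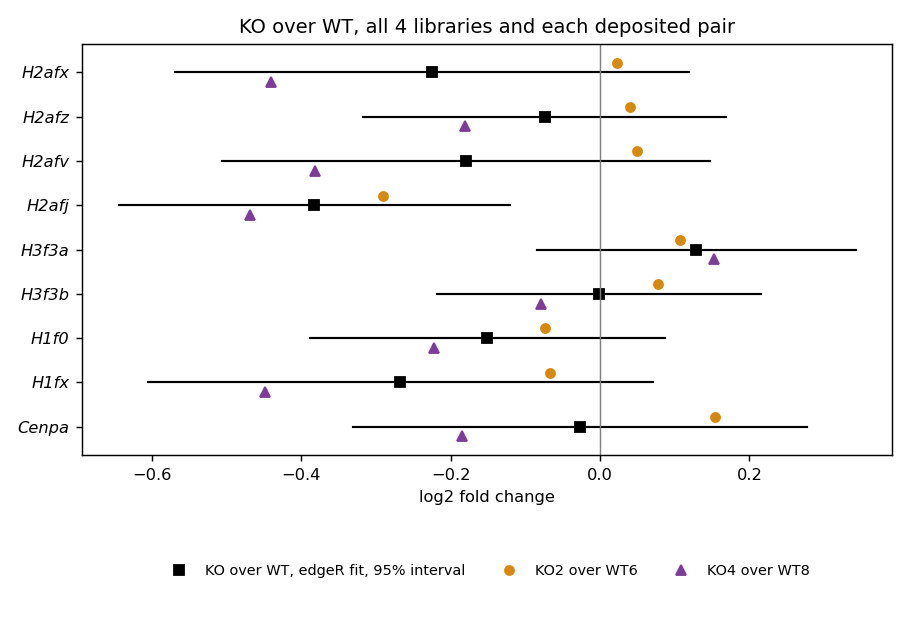
Log2 fold change of KO over WT for each gene, with the edgeR estimate and its 95% interval in black, and the ratios within each deposited pair as orange circles (KO2 over WT6) and purple triangles (KO4 over WT8). Of the 9 intervals, that of H2afj alone leaves out 0, and 5 genes have pair ratios of opposite sign (share over all genes not computed).

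Ratios within the deposited pairs, which differ from each other in sex as well, pointed different ways. In KO2 over WT6 the log2 ratio was above 0 for 6 genes, the largest being Cenpa at 0.15, and below 0 for H2afj, H1f0 and H1fx. In KO4 over WT8 it was below 0 for every gene but H3f3a, down to -0.47 for H2afj, -0.45 for H1fx and -0.44 for H2afx. The sign differed between the pairs for H2afx, H2afz, H2afv, H3f3b and Cenpa. H2afj, H1f0 and H1fx were lower in KO in both pairs, and H3f3a was higher in both. No test was run within a pair, which holds 1 library of each genotype.

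The KO libraries gave nearly the same values for these genes, and the WT libraries did not. KO2 and KO4 differed by a median of 0.03 on the log2 scale and by at most 0.06. WT6 and WT8 differed by a median of 0.21 and by up to 0.44 (H2afx). All 9 genes had a smaller difference between KO libraries than between WT libraries, which was so for 67.2% of the 10055 genes at a mean of 10 CPM or more. Over those genes the median difference was 0.09 between KO libraries and 0.15 between WT libraries. WT8 was the highest of the 4 libraries for 8 of the 9 genes, where it was the highest for 32.8% of all tested genes. It was the lowest for H3f3a (34% of all genes), and WT6 was the lowest for 5 of the 9 (20.7% of all genes). Summed over the 9 genes, reads made up 3998 and 3963.5 CPM in KO, against 3889 and 4426 CPM in WT.

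The libraries differed along transcript composition and length as well. Genes with a transcript sequence were put in 5 groups of equal size by GC content, and in another 5 by length. The median log2 deviation of WT8 from the 4-library mean ran from -0.08 in the group of lowest GC content to 0.14 in that of the highest. By length it ran from 0.16 in the shortest group, up to 1515 bases, to -0.09 in the longest. KO4 ran the other way, from 0.08 to -0.09 by GC content and from -0.10 to 0.07 by length. KO2 fell from 0.05 to -0.04 by GC content and stood at 0.0097 and 0.0058 at the ends by length. WT6 ran from -0.035 to 0.0024 by GC content and from -0.0488 to 0.019 by length. Of the histone variant transcripts, H2afx, H2afz, H1fx and Cenpa lay in that shortest group, and H1fx and H2afx had GC contents of 71.3% and 62.3%. H3f3a, which went the other way in WT8, had a GC content of 43.2% and 2841 bases. H3f3b had nearly the same composition (43.4% GC, 2514 bases) and was highest in WT8. There it deviated from the 4-library mean by 0.07 before and 0.15 after the removal described next.

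The fit was repeated with the trend on GC content and length removed from each library, an alternative chosen after seeing the data. Any difference between the genotypes along GC content or length was removed with it. WT8 was then the highest library for 7 of the 9 genes. Both KO libraries lay below both WT libraries for H2afj alone, and above them for none of the 9. The KO libraries were closer to each other than the WT libraries for 7 genes, with median differences of 0.08 in KO and 0.15 in WT on the log2 scale. Shares over all genes were not computed for values with the trend removed, so these counts have none beside them. The log2 fold change became -0.02 for H2afx, -0.05 for H1fx and 0.01 for H3f3a. For H3f3b it became -0.11. It was -0.22 for H2afv and -0.28 for H2afj, and all 9 genes had an edgeR adjusted p of 0.997. The deviation of WT8 in H2afv was 0.28 before and 0.30 after, while in H2afx it was 0.33 before and 0.08 after.

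**Figure D4:**
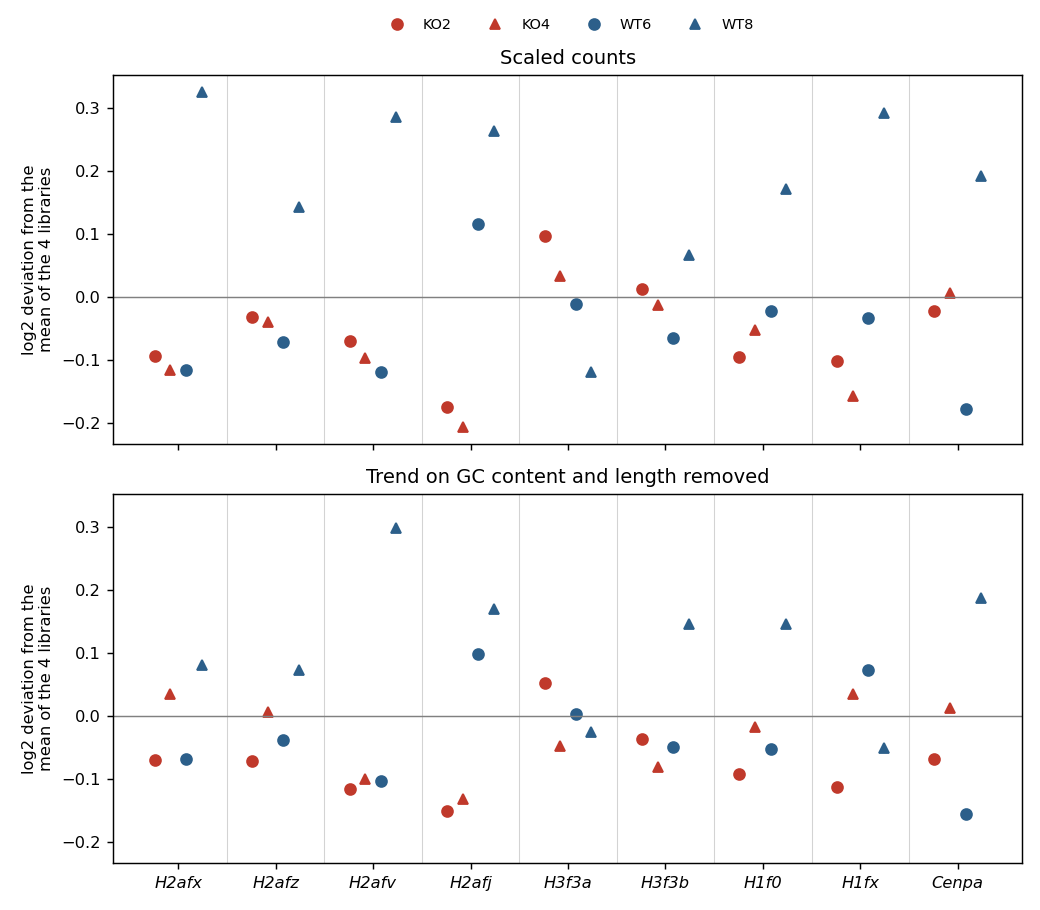
Log2 deviation of each library from the 4-library mean for each gene, from scaled counts (upper panel) and after removal of the trend on GC content and length (lower panel), KO in red left of WT in blue. WT8 reaches 0.33 for H2afx in the upper panel and 0.08 in the lower one, and stays near 0.3 for H2afv.

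WT8 also held more RNA of red blood cells. The globin genes Hbb-y, Hba-x, Hbb-bh1 and Hba-a1 summed to 555 and 558 CPM in KO, against 423 and 969 CPM in WT, with WT8 the highest for all 4 of them. Summed levels of the other lists differed less in CPM. Microglia and macrophage markers reached 22.9 and 19.6 in KO, against 24.2 and 29.6 in WT, and endothelial markers 104 and 101 in KO, against 102 and 111 in WT. Mesenchyme and meninges markers, of which 4 of 5 were tested, reached 8.84 and 7.75 in KO, against 7.67 and 11.9 in WT. Of these 18 tested markers 0 passed in edgeR, DESeq2 or limma-voom. In edgeR 2 of them had an unadjusted p under 0.05, beside 4.7% of all tested genes. The part of these cells in the high values of WT8 was not tested.

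Promoters of the variant genes were taken from the RefSeq table (GRCm38.p6, windows of 300 bases that end shortly after the start), where 8 of the 9 had an entry. The CCAAT box, searched on both strands, was present in the windows of H2afz, H2afv, H2afj, H3f3a, H3f3b and Cenpa, 6 of the 8, beside 37.4% of 32544 windows in the table. It was not in those of H1f0 and H1fx. The letters TATAAA were present in the window of H3f3b alone, beside 13.6% of all windows. TTTGAA, the letters of the cell cycle homology region, occurred in H2afv and Cenpa, beside 17.8%. A match is a description of the letters and not a site.

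The lines show the promoter of H2afv, with 4 copies of the CCAAT letters, and that of H3f3a, with 1 copy, as examples of windows with many copies and with few. Any relation of copies to the level in WT8 was not tested. WT8 deviated on the log2 scale by 0.28 in H2afv and by 0.07 in H3f3b, which also had 4 copies. The deviation was 0.14 in H2afz and 0.26 in H2afj (3 copies each), 0.19 in Cenpa (2 copies) and -0.12 in H3f3a. H1f0 and H1fx, with no copy, deviated by 0.17 and 0.29. With the trend on GC content and length removed, WT8 deviated by 0.30 in H2afv, 0.15 in H3f3b, 0.07 in H2afz and 0.17 in H2afj. In Cenpa, H3f3a, H1f0 and H1fx it then deviated by 0.19, -0.03, 0.15 and -0.05. Capitals mark the box, written here as its reverse complement. H2afv is chr11:6444394-6444693 and H3f3a is chr1:180813556-180813855, both on the minus strand of GRCm38.p6. The window follows the start in RefSeq. For H3f3a this start lies downstream of the one in the deposited tables, so that the window falls inside the gene as the tables place it.
H2afv: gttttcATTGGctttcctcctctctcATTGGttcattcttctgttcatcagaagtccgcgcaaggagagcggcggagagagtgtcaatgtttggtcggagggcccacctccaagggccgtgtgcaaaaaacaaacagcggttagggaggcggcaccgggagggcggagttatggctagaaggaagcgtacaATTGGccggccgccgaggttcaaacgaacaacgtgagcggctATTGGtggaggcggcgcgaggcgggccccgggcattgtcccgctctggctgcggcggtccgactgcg
H3f3a: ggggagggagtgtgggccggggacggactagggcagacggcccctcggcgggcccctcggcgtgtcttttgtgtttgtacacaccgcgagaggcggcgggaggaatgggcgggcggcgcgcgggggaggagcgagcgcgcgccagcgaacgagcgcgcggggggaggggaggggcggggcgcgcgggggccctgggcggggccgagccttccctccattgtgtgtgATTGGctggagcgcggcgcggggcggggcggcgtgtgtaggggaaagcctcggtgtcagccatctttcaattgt

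Genes that place and remove the variants showed no call. The counts above 0 given for each list stand beside 7674 of 15708 over all tested genes. The 12 genes of H2A.Z deposition and removal, which include the SRCAP and p400 remodellers, had 4 members above 0, with a median log2 fold change of -0.02. Anp32e, a chaperone that takes H2A.Z out of nucleosomes, had 291 and 299 CPM in KO, against 260 and 257 CPM in WT (log2 fold change 0.19). Vps72, which binds H2A.Z for its deposition, had 208 and 196 CPM in KO, against 216 and 263 CPM in WT (log2 fold change -0.25). The genotypes did not overlap for either gene, and neither passed (edgeR adjusted p = 0.743 for both). Of all tested genes 20.1% had KO above WT without overlap, as Anp32e did, and 19.4% had KO below WT, as Vps72 did. Both genes were named for having the smallest p-values of the list, a choice that favours such an order.

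The 8 chaperone genes of H3.3 had 3 members above 0 and a median of -0.13. Dek, a chromatin protein that also binds H3.3, had 77.8 and 92.2 CPM in KO, against 68.1 and 45.2 CPM in WT (log2 fold change 0.58, edgeR adjusted p = 0.743), with WT8 the lowest library. Daxx, which places H3.3 at telomeres and repeats together with Atrx, stood at a log2 fold change of -0.15. Atrx, the most abundant of the list, stood at 0.15, and none of the 8 passed.

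The CENP-A loading and inner centromere list had 6 of 11 members above 0, a median of 0.02 and no call. Cenpc1, which binds CENP-A nucleosomes, stood at a log2 fold change of 0.22, and Cenpt, a DNA-binding protein of the inner kinetochore, at -0.13. Hjurp, the CENP-A chaperone and the most abundant member, had 173 and 204 CPM in KO, against 193 and 168 CPM in WT.

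Of 14 genes for H2AX phosphorylation and its readers 11 lay above 0, beside 7674 of 15708 over all tested genes. Their median was 0.05, and none passed. Atm, a kinase of H2AX, had 3.82 and 5.51 CPM in KO, against 3.20 and 2.38 CPM in WT (log2 fold change 0.74, edgeR adjusted p = 0.743). Eya2, a phosphatase of the family that acts on H2AX, had 4.69 and 3.17 CPM in KO, against 5.41 and 7.33 CPM in WT (log2 fold change -0.69). Baz1b, also a kinase of H2AX and the most abundant of the list, stood at 0.01. For 8 of the 14 the lowest value was that of WT8, which was so for 34% of all tested genes.

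General histone chaperones had 8 of 10 members above 0, a median of 0.08 and no call. Supt16, a FACT subunit, stood at a log2 fold change of 0.66, with 25.6 and 34.6 CPM in KO, against 25.0 and 12.9 CPM in WT. Chaf1b, a subunit of the CAF-1 complex that deposits canonical H3, stood at -0.21, and Npm1, the most abundant, at 0.07. Over the 5 lists of machinery, edgeR called 0 of 55 genes in either direction, as did DESeq2 and limma-voom. Of the 55, 3 had an unadjusted p under 0.05 in edgeR, beside 4.7% of all tested genes.

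Among 11 further variant genes, which include both macroH2A genes, 5 were tested and H2afy was the one called. Hist3h2ba, which encodes a form of H2B, was the most abundant by the mean over all 4 libraries, at 239 and 212 CPM in KO, against 227 and 319 CPM in WT (log2 fold change -0.28). Its KO and WT values overlapped, with WT8 again the highest.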

How the data were processed

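RNA of E13.5 mouse brains was sequenced in 2 KO and 2 WT libraries. The authors deposited raw read counts per gene (whole numbers), per the file headers. Their tables also hold a CPM, a linear fold (ratio), its log2 and p-values, per the file headers, and these deposited values were not used here. Tools listed in the submitters' processing notes, with no roles, are TopHat2 2.0.12, Bowtie2 2.2.3 and HTSeq 0.6.0, and the build listed is mm9. Positions in the tables equal those of GENCODE M21 on GRCm38 for 91.6% of matched genes in each table, so GRCm38 is used.

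Counts of 19150 genes were joined by identifier and fitted in edgeR 4.0.16 (R 4.3.3): quasi-likelihood F-test, genotype as the only term, TMM (factors 0.971 to 1.01), filterByExpr and Benjamini-Hochberg adjustment over 15708 genes, with a threshold of 0.05. SE is the fold over the root of F. Log2 CPM within pairs used a prior count of 2. The fit was tested on simulated counts. DESeq2 1.42.0, limma 3.58.1 (voom), other scalings, no filter, the deposited pair as a term and single libraries left out were alternatives, and 3 kinds were added after the data were seen: removal of a GC content and length trend, pseudogene reads and another gene length. Lengths come from GENCODE M21. All 9 members, H2afy and H2afy2 are named, and from each list the 2 genes with the smallest p and the most abundant one, where it bears on the text. Hist1h1d, Hist1h1e, the pseudogenes, the overlapping genes, Xist and Kdm5d were named after their values were seen. The members and lists were chosen with earlier results of these data known. No search for genes with a like pattern was made, as 4 libraries are too few. Some genes of the lists are not reported here and were left out of the counts and sums.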

Additional observations from a re-analysis of the deposited data

How the results depend on the processing

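None of the 9 genes passed under any alternative, and of 100 recomputed folds 92 kept their direction. Without WT8 the fold turned positive for 5 genes: H2afx 0.0164, H2afz 0.0408, H2afv 0.0402, H3f3b 0.0695 and Cenpa 0.17. H3f3b also turned without KO4 (0.0099), and with library totals alone H3f3b (0.0363) and Cenpa (0.0133) turned. Fits without 1 library ranged from -0.43 to 0.0164 for H2afx, -0.18 to 0.0408 for H2afz, -0.37 to 0.0402 for H2afv, -0.0677 to 0.0695 for H3f3b and -0.20 to 0.17 for Cenpa. Such a fit holds 1 library of a genotype and assumes that it varies like the others.

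Genes called over the whole table numbered 0 higher and 1 lower. The lower count was 2 with library totals only and 2 with the deposited pair as a term, and DESeq2 gave 2 higher and 2 lower. Without single libraries the counts ranged from 0 to 67 higher and from 0 to 37 lower, both largest without WT8 (lower: 0 without WT6, 2 without KO4). The cause was not tested. With principal transcript lengths the level was 708 CPM per kilobase for H2afz, 136 for H3f3a, 573 for H3f3b and 80.9 for Cenpa. No paired analysis by replicate number was possible because the KO and WT libraries share none, so the pairing of the deposited tables was used as the term above. The length alternative from the deposited tables was not run, since they give none. With 2 libraries a group, a median 95% interval reached 0.26 to either side at 10 CPM or more. H2afj (-0.38) and H1fx (-0.27) had larger folds than that, and neither passed after adjustment over all genes. The interval of H1fx (-0.61 to 0.07) held 0 before any adjustment, and that of H2afj (-0.64 to -0.12) did not.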
